A study of Mus musculus with 72 samples.

Results

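The 6 myosin heavy chain genes *Myh1*, *Myh2*, *Myh3*, *Myh4*, *Myh7*, and *Myh8* were examined by RNA-Seq in mouse gastrocnemius. They were chosen by symbol, as the sarcomeric heavy chains that mark adult fast and slow fibers and developing or regenerating fibers, and are 6 of the 55401 genes in the deposited tables. All animals were male. WT mice and whole-body *Bmal1*-KO littermates from heterozygous breeding were compared with KO+AAV mice, which are KO mice that received, at postnatal day 5, an AAV9 vector carrying HA-tagged *Bmal1* under the muscle promoter CK6. Muscles of these 3 groups were collected at ZT1 at 10 weeks (6 WT, 6 KO, and 7 KO+AAV libraries) and at 40 weeks (5 libraries each). In a separate experiment at 10 weeks, 3 KO-GFP mice, which received AAV9 with GFP under CK6 at postnatal day 5, were set beside 3 KO-Control mice, and the time of day was not given in the sources used here. KO-GFP and KO-Control thus both lack *Bmal1*. The model is limited in that the study describes transgene protein in gastrocnemius but not in soleus or diaphragm.

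A myosin heavy chain is the motor subunit of the thick filament, and the isoform that a fiber makes largely sets how fast it shortens. In adult limb muscle of rodents, *Myh4* marks the fast glycolytic IIB fibers, *Myh1* the fast IIX fibers, *Myh2* the fast oxidative IIA fibers, and *Myh7* the slow type I fibers that are common in soleus and few in gastrocnemius. *Myh3* (embryonic) and *Myh8* (perinatal) are made in developing muscle, give way to the adult isoforms after birth, and are made again in regenerating fibers. All but *Myh7* stand in a row on the same chromosome and strand, and *Myh7* lies apart beside the cardiac gene *Myh6*.

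On GRCm38, the cluster runs from *Myh3* (ENSMUSG00000020908, chr11:67078300-67102291) through *Myh2* (ENSMUSG00000033196, chr11:67171027-67197517), *Myh1* (ENSMUSG00000056328, chr11:67200052-67224575), and *Myh4* (ENSMUSG00000057003, chr11:67238029-67260446) to *Myh8* (ENSMUSG00000055775, chr11:67277124-67308634), all on the plus strand, while *Myh7* (ENSMUSG00000053093, chr14:54970684-54994626) is on the minus strand. The 250 bases before the transcription start were read from RefSeq (GRCm38.p6) for 6 of 6 genes. The clock factor BMAL1 is known to bind E-boxes, above all CACGTG. No CACGTG was found in these windows of the 6 genes, whereas 6.02% of 32851 such windows in the genome hold one. This says only that these letters are not in these windows. The broader E-box CANNTG, which reads the same on both strands and includes CACGTG, was in the windows of 4 of the 6 genes and in 66.2% of all windows. The TATA sequence TATAAA, searched on both strands, was in 4 of the 6 and in 12.4% of all.

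The windows of *Myh3* and *Myh8* are shown because these 2 developmental genes carried the differences at 40 weeks described below. Capitals mark CANNTG on both strands alike and TATAAA on either strand, as well as, in *Myh8*, the run described next.
*Myh3*, chr11:67078050-67078299, plus strand: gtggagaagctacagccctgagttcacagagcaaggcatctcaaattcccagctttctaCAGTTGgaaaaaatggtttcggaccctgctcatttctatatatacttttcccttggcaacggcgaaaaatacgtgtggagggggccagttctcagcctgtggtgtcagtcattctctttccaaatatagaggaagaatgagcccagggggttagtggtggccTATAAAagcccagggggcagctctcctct
*Myh8*, chr11:67276874-67277123, plus strand: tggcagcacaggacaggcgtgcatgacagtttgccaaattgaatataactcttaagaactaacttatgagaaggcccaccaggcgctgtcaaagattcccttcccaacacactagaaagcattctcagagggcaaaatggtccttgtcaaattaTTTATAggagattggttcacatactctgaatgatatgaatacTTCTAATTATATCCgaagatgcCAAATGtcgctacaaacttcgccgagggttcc
The *Myh3* window holds TATAAA 29 bases and CAGTTG 191 bases before the start. The *Myh8* window holds CAAATG 32 bases and TATAAA, on the other strand, 96 bases before the start.

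The longest run of bases shared by the 3 fast genes and *Myh8* was 14 bases, TTCTAATTATATCC. It was found on the plus strand of 4 of the 32851 windows (0.0122%), those of *Myh1*, *Myh2*, *Myh4*, and *Myh8*, and in no window of *Myh3* or *Myh7*. The run and the 4 genes were picked after the sequences were seen, so this is a description of how alike neighboring copies are. The run, in capitals, with 20 bases on either side, reads as follows.
*Myh2*, chr11:67170882-67170935: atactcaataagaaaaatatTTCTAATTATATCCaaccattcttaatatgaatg
*Myh1*, chr11:67199922-67199975: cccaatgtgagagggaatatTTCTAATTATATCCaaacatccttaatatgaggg
*Myh4*, chr11:67237634-67237687: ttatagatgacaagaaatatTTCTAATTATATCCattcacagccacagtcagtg
*Myh8*, chr11:67277050-67277103: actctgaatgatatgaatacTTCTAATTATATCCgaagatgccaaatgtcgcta
It begins 125, 160, 158, and 54 bases before the start of *Myh2*, *Myh1*, *Myh4*, and *Myh8*. *Myh8*, the perinatal gene, has it closest to the start.

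Values below are normalized counts, that is, reads per gene divided by 1 size factor per library. ICBR sequenced 10 of the 10-week libraries, of which 3 were WT, 3 were KO, and 4 were KO+AAV, to 32563431 to 41733282 reads counted on genes. Novogene sequenced the 24 others of the main experiment to 9325122 to 13610317 reads, and the 6 libraries of the GFP experiment held 6754312 to 8515400. All 6 skeletal muscle markers examined (*Ckm*, *Acta1*, *Ttn*, *Neb*, *Mylpf*, and *Des*) were present in each group, cardiomyocyte markers summed to at most 110, and hepatocyte markers to at most 407. The targeted gene, *Arntl* (*Bmal1*), had 402 to 634 normalized counts in WT and 196 to 296 in KO at 10 weeks, and 480 to 608 in WT at 40 weeks. At 40 weeks, 4 libraries labelled KO had 308 to 395, but the library labelled KO replicate 2 had 1039, above every WT library, which goes against its label. A count over the whole gene can include parts of the transcript that a KO allele keeps. KO+AAV libraries had 169 to 281 at 10 weeks and 268 to 359 at 40 weeks, not above KO, so their labels could not be checked by this gene, and KO-Control and KO-GFP had 113 to 121 and 70.2 to 150. Values without KO replicate 2 are given beside each called 40-week result of the 6 genes, and counts without it for the other lists.

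*Myh4*, the IIB isoform, was the most abundant heavy chain in 40 of 40 libraries. Per kilobase of transcript, the median level over the 34 libraries of the main experiment was 122516 for *Myh4*, 10065 for *Myh1*, 6209 for *Myh2*, 248 for *Myh7*, 8.77 for *Myh3*, and 7.47 for *Myh8*. The neighbors at the end of this order, *Myh3* and *Myh8*, did not separate, since *Myh3* ranged from 1.72 to 196 and *Myh8* from 1.53 to 30.9 per kilobase. *Myh1* (2833 to 23167) and *Myh2* (1423 to 17472) also overlapped, although *Myh1* was the higher in 37 of 40 libraries. *Myh4* varied least, with a highest library 5.97 times the lowest, and *Myh7* most, with 8072 times. The 6 genes together took 3.09% to 7.79% of the reads counted on genes. A few reads stood behind the developmental genes, 4 to 1706 for *Myh3* and 6 to 386 for *Myh8* in a library, while *Myh4* had 138496 or more.

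The heavy chains are near copies of one another, and some overlap antisense genes. Of all windows of 150 bases in each gene's longest coding transcript, 5.43% of those of *Myh7* were also found in *Myh6*, 2.49% of those of *Myh1* in *Myh2*, *Myh4*, or *Myh8*, 2.06% for *Myh2*, 1.6% for *Myh8*, 0.511% for *Myh4*, and 0.306% for *Myh3*, so reads from these stretches cannot be told apart. On the opposite strand, *Myhas* shares 8.11% of the exon bases of *Myh1*, *9430073C21Rik* 3.32% of those of *Myh2*, and *Gm31251*, *Mhrt*, and *Gm29015* 6.07%, 5.62%, and 1.65% of those of *Myh7*. The counting was not stated to use strand, so reads in those exons could have come from either gene. *Myh3*, *Myh4*, and *Myh8* had no antisense gene over them.

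As a share of the 4 adult isoforms, with each count divided by transcript length, *Myh4* made up 91.2% ± 6.12 (SD, n = 6) in WT, 87.8% ± 6.33 (n = 6) in KO, and 90.9% ± 4.93 (n = 7) in KO+AAV at 10 weeks. At 40 weeks the share was 89.1% ± 5.66 in WT, 73.6% ± 15.8 for KO, and 80.2% ± 8.53 for KO+AAV (n = 5 each), and without KO replicate 3 it was 80.3% ± 5.4 in KO (n = 4). The lowest WT library at 40 weeks had 80.7%, and 3 of 5 KO and 3 of 5 KO+AAV libraries lay below it. *Myh1*, the IIX isoform, took 6.26% ± 2.58 in WT at 40 weeks, 13.7% ± 4.06 in KO, and 12.3% ± 4.62 in KO+AAV, with 4 of 5 KO and 4 of 5 KO+AAV libraries above the highest WT library (10.2%). *Myh2*, the IIA isoform, took 4.31% ± 2.73, 9.86% ± 7.54, and 6.99% ± 4.99 in the same order, and these ranges overlapped. Without KO replicate 3 the *Myh2* share in KO was 6.55% ± 1.58 (n = 4). *Myh7* was the smallest of the 4 shares in 40 of 40 libraries. KO replicate 3 at 40 weeks stood apart, with 46.7% *Myh4*, 18.9% *Myh1*, 23.1% *Myh2*, and 11.3% *Myh7*. A share is a score over the 4 adult isoforms, so it was not tested. In bulk muscle, fewer fibers of a type and less RNA per fiber cannot be told apart.

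**Figure D1:**
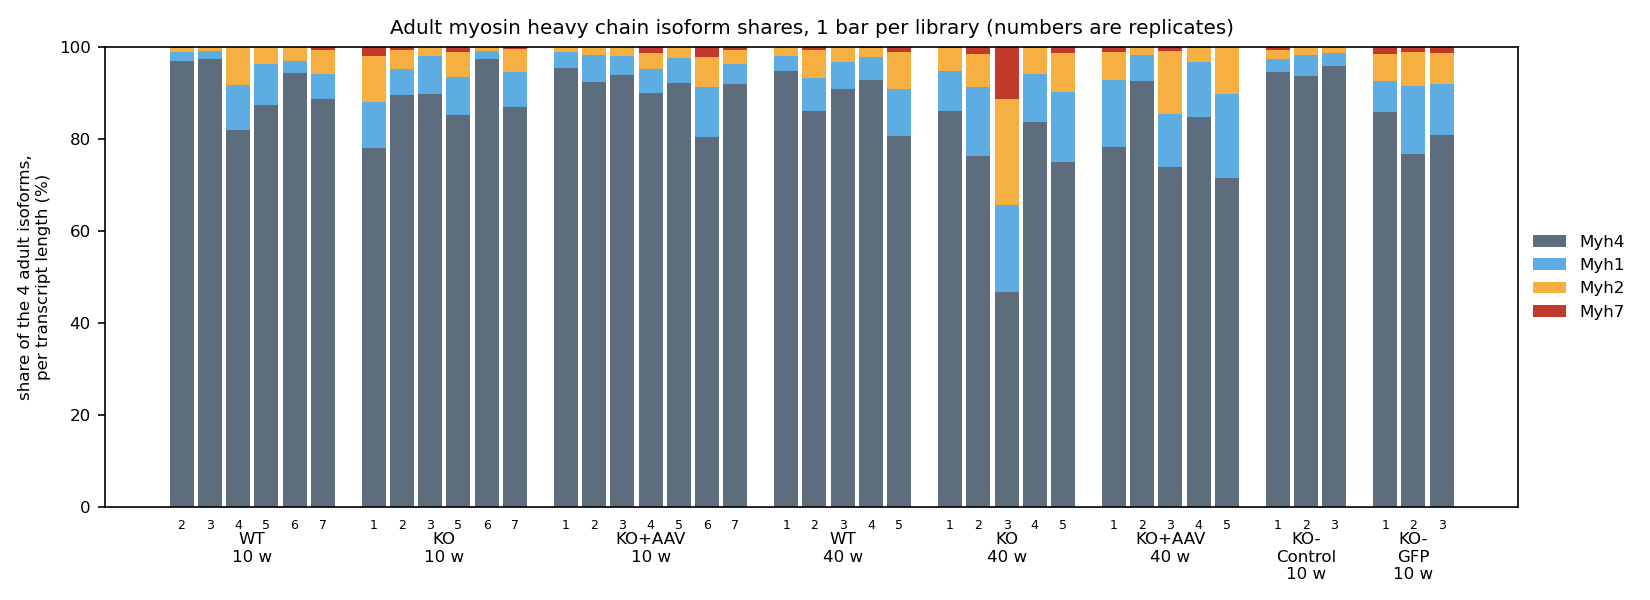
Share of *Myh4*, *Myh1*, *Myh2*, and *Myh7* in their sum per transcript length (%, y axis), with 1 bar per library and replicate numbers under the bars. *Myh4* fills the largest part of every bar, and the bar of KO replicate 3 at 40 weeks has the smallest *Myh4* share, 46.7%.

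At 10 weeks, none of the 6 genes passed the test between any of the 3 groups of the main experiment. In WT against KO, 0 of 6 had an adjusted *P* under 0.05 (limma, Benjamini-Hochberg over 16199 genes), where 8% of all genes tested did, and 0 of 6 had an unadjusted *P* under 0.05, where 19.6% of all genes did. In WT against KO+AAV, 0 of 6 were called against 5.15% of all genes, and in KO+AAV against KO 0 of 6 against 0.204%. Without adjustment the counts under 0.05 were again 0 of 6 in both, where 18.1% and 9.23% of all genes fell under it. By edgeR and DESeq2 no member was called at 10 weeks in these comparisons either. *P* values measure the spread between these libraries only.

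*Myh4* had a lowest, median, and highest normalized count of 695871, 837286, and 1266819 in WT, 648986, 809315, and 1000025 in KO, and 519936, 941166, and 1118203 in KO+AAV. The interval of its difference was the narrowest, -0.39 to 0.69 on the log2 scale for WT against KO. *Myh1* had 18471, 37444, and 82825 in WT, 17227, 61204, and 98790 in KO, and 38679, 49113, and 71682 in KO+AAV. *Myh2* had 10229, 28836, and 70946 in WT, 8654, 39352, and 97907 in KO, and 13777, 22340, and 43989 in KO+AAV. The 3 groups overlapped over most of their range for each of these fast isoforms. For *Myh1* the log2 fold change of WT against KO was -0.57 (95% interval -1.29 to 0.16), which was -1.27 within the ICBR libraries and 0.13 within the Novogene libraries. For *Myh2* it was -0.26 (-1.26 to 0.74), with -1.04 and 0.52 within the sites, so the direction differed between sites for both genes. Within sites the direction also differed for *Myh2* (-0.05 and 0.36) and *Myh4* (-0.11 and 0.27) in WT against KO+AAV, and for *Myh1* (-0.62 and 0.25), *Myh2* (-0.99 and 0.15), *Myh4* (0.30 and -0.16), and *Myh7* (-0.72 and 0.68) in KO+AAV against KO, each at ICBR and then at Novogene, with no call at either site.

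*Myh7*, the slow isoform, had 6.57, 368, and 4943 in WT, 12.3, 4714, and 20761 in KO, and 12.6, 575, and 14740 in KO+AAV at 10 weeks. Each group held libraries with almost no *Myh7* beside libraries rich in it. WT against KO gave -1.94 (SE 2.06, 95% interval -6.13 to 2.25), with -3.23 at ICBR and -0.65 at Novogene, so even a large difference would not have been detected. *Myh3*, the embryonic isoform, had 10.6, 39, and 49.6 in WT, 22.9, 47.4, and 259 in KO, and 12.6, 55.8, and 653 in KO+AAV. *Myh8*, the perinatal isoform, had 19.7, 28.3, and 59.9 in WT, 26.9, 40.9, and 81 in KO, and 20.2, 53.9, and 148 in KO+AAV. For both, the highest libraries were of KO or KO+AAV, and the 3 groups overlapped. The intervals for WT against KO were -2.14 to 0.58 for *Myh3* and -1.23 to 0.39 for *Myh8*, with -1.19 and -0.37 for *Myh3* and -0.54 and -0.31 for *Myh8* at ICBR and Novogene. Against KO+AAV, WT gave -1.07 for *Myh3* (-2.39 to 0.24) and -0.56 for *Myh8* (-1.34 to 0.23).

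**Figure D2:**
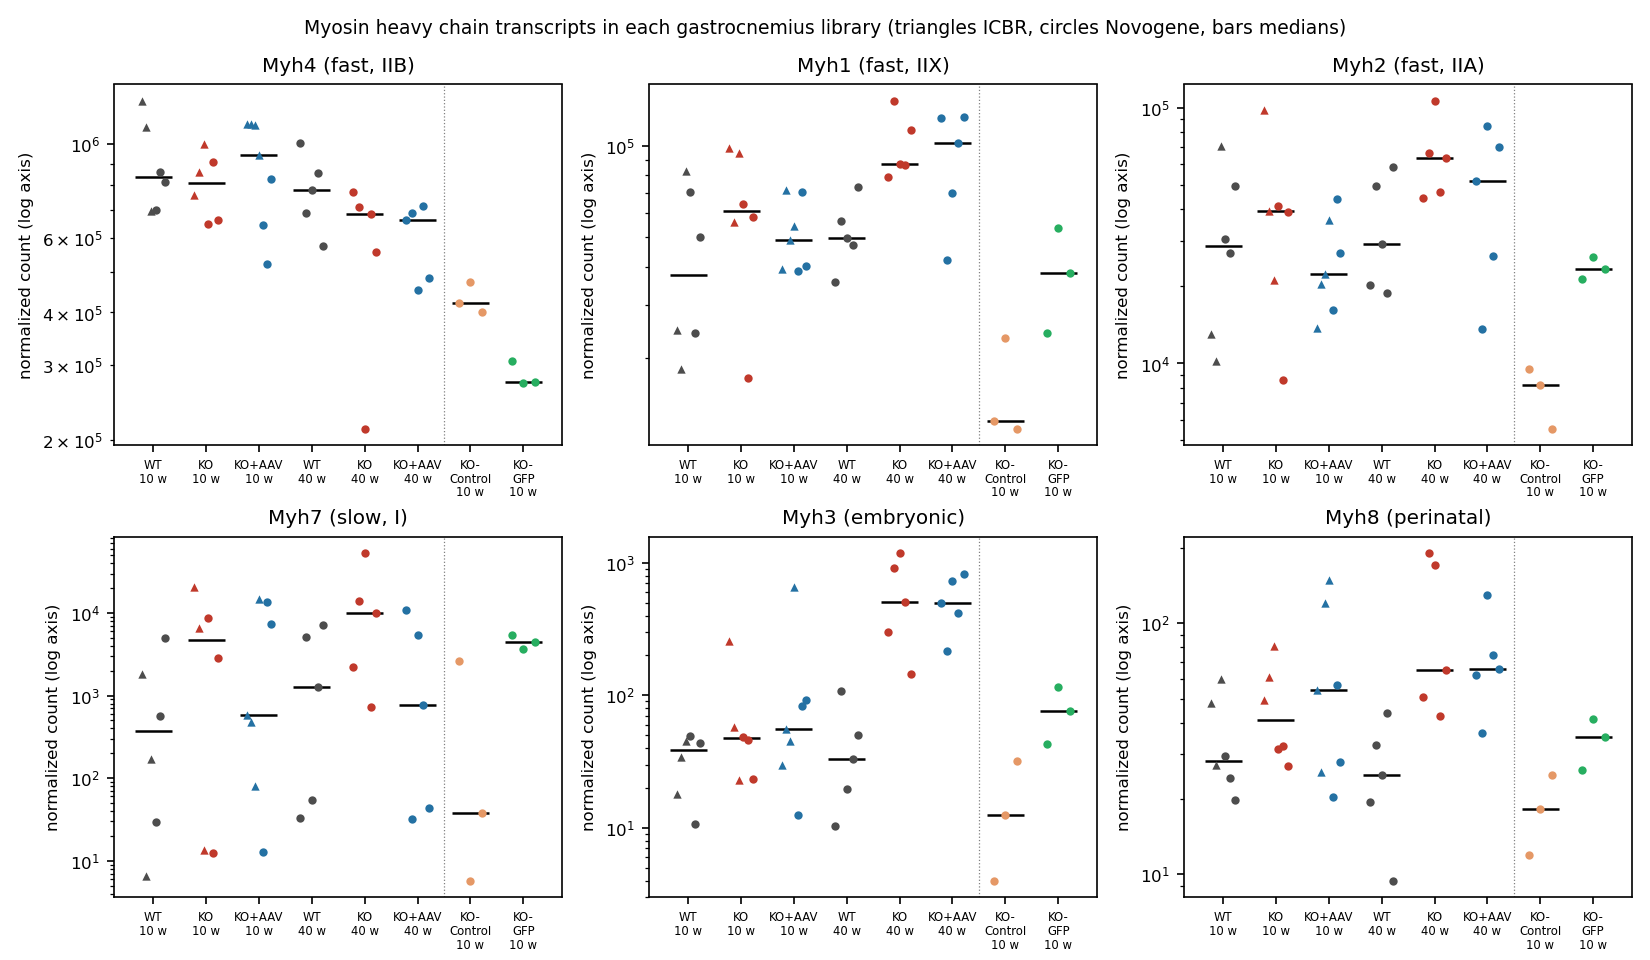
Normalized counts (y axes, log scale) of the 6 genes in each library by group and age (x axes), with triangles for ICBR, circles for Novogene, and bars for medians. The dotted line separates the GFP experiment, whose table was normalized separately. The *Myh3* points of the KO and KO+AAV groups at 40 weeks all lie above the WT points at 40 weeks, whose highest is 107.

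At 40 weeks, both developmental isoforms were higher in KO and in KO+AAV than in WT, and none of the 4 adult isoforms passed the test. Of the 6 genes, 2 were called in WT against KO, where 23.5% of all genes tested were called (11.5% with a lower level in WT). In WT against KO+AAV, 2 of 6 were called as well, against 12.5% of all genes (6.41% lower in WT). The 2 comparisons share the WT libraries and so are not independent. 

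*Myh3* had 10.4, 107, 19.5, 32.8, and 50 normalized counts in WT replicates 1 to 5. In KO it had 300, 908, 1182, 510, and 146, and in KO+AAV 493, 215, 733, 418, and 816. Every KO and KO+AAV library was above every WT library, a separation seen in 13.6% of all genes for KO and 11.7% for KO+AAV. *Myh3* was 14.1-fold lower in WT than in KO (log2 fold change -3.82, SE 0.73, limma adjusted *P* = 0.000256) and 14.4-fold lower in WT than in KO+AAV (-3.85, SE 0.73, adjusted *P* = 0.000463). Exact permutation of the libraries gave *P* = 0.00794, two-sided, in both comparisons, the smallest that 252 arrangements allow. Without the library labelled KO replicate 2 the WT against KO difference was -3.59 (limma adjusted *P* = 0.00116), and without KO replicate 3, the library richest in slow transcripts, it was -3.49 (adjusted *P* = 0.00148). *Myh3* was a minor transcript in each of these libraries, at most 0.259% of the 6 genes per length in any KO library and 0.12% in any KO+AAV library.

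*Myh8* had 19.3, 32.6, 24.8, 43.8, and 9.38 in WT, 50.9, 190, 170, 42.8, and 64.8 in KO, and 62.2, 36.5, 130, 74.8, and 65.9 in KO+AAV. In each of KO and KO+AAV, 4 of 5 libraries were above the highest WT library and 1 fell inside the WT range. *Myh8* was 3.59-fold lower in WT than in KO (log2 fold change -1.85, SE 0.44, limma adjusted *P* = 0.00228), with an exact permutation *P* of 0.0159. Without KO replicate 2 the difference was -1.56 (limma adjusted *P* = 0.0114), and without KO replicate 3 it was -1.60 (adjusted *P* = 0.0108). It was 2.86-fold lower in WT than in KO+AAV (-1.52, SE 0.44, limma adjusted *P* = 0.0188), with an exact permutation *P* of 0.0159. The call against KO+AAV was lost without KO+AAV replicate 3 (adjusted *P* = 0.0681) and without WT replicate 5 (adjusted *P* = 0.0703).

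Among the adult isoforms, *Myh1* came nearest to the threshold. It had 35552, 56595, 49883, 47034, and 73419 in WT, 79033, 140878, 86975, 86728, and 113171 in KO, and 123994, 42106, 70122, 102670, and 124494 in KO+AAV. All 5 KO libraries were above all 5 WT libraries, whereas KO+AAV overlapped WT. The fit gave -0.96 for WT against KO (SE 0.39, 95% interval -1.75 to -0.16, limma adjusted *P* = 0.0747) and -0.75 for WT against KO+AAV (SE 0.39, -1.55 to 0.05, adjusted *P* = 0.226). Exact permutation for WT against KO alone, with no adjustment over genes, gave *P* = 0.00794, and DESeq2 and a model of these 2 groups alone gave adjusted *P* values of 0.0402 and 0.0144. The difference was not called by edgeR (adjusted *P* = 0.0629), without KO replicate 2 (-0.83, limma adjusted *P* = 0.169), or with the slow fiber score described below as a covariate (-0.49, adjusted *P* = 0.381).

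*Myh2* had 20355, 49520, 29314, 18862, and 58459 in WT, 44542, 66544, 106285, 46952, and 63561 in KO, and 51618, 13669, 85060, 26401, and 69951 in KO+AAV. *Myh4* had 1006964, 688957, 779777, 857081, and 574629 in WT, 769171, 709708, 212270, 684554, and 554832 in KO, and 663792, 687420, 451840, 715415, and 483714 in KO+AAV. The groups overlapped for both genes. The WT against KO differences were -0.97 for *Myh2* (SE 0.54, limma adjusted *P* = 0.2) and 0.52 for *Myh4* (SE 0.29, adjusted *P* = 0.199). For *Myh4* the value was set in part by KO replicate 3, without which it was 0.19 (adjusted *P* = 0.634). 

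*Myh7* had 32.6, 5154, 54.9, 1267, and 7206 in WT, 2197, 13928, 53008, 723, and 9961 in KO, and 10800, 32.3, 5378, 772, and 43.1 in KO+AAV. Libraries below 100 were found in WT and KO+AAV and none in KO, but KO overlapped both groups. The differences were -3.40 for WT against KO (SE 2.25, 95% interval -7.99 to 1.19, limma adjusted *P* = 0.291) and 0.08 for WT against KO+AAV (SE 2.25, -4.50 to 4.67, adjusted *P* = 0.988). Both intervals are wide and include 0.

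Between KO+AAV and KO at 40 weeks, 0 of 6 genes were called, against 0.259% of all genes. These groups differ in muscle *Bmal1* and in the AAV9 vector that carried it, since no vector is described for the KO mice. The GFP experiment was made at 10 weeks only, so *Bmal1* and the vector cannot be told apart here. Before adjustment 0 of 6 were under 0.05, against 10.1% of all. edgeR and DESeq2 also called none. For *Myh3* the difference was 0.03 (95% interval -1.47 to 1.52) and for *Myh8* -0.33 (-1.22 to 0.56). The fast isoforms gave 0.14 for *Myh4* (-0.45 to 0.73), -0.20 for *Myh1* (-1 to 0.59), and -0.62 for *Myh2* (-1.71 to 0.48). *Myh7* gave -3.49 (-8.08 to 1.10). These intervals are wide, and the values do not show that the groups were alike.

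**Figure D3:**
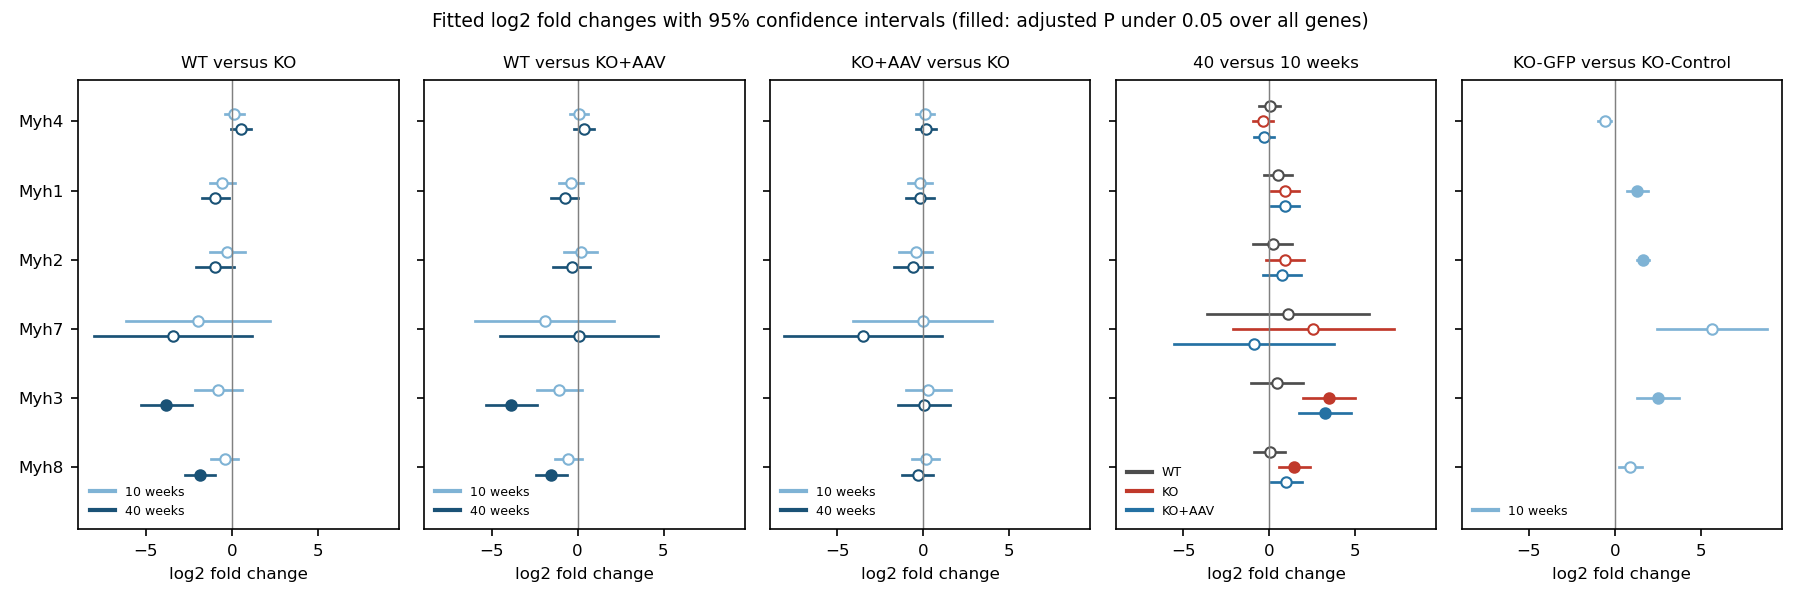
Fitted log2 fold changes (x axes) of the 6 genes (y axis) with 95% confidence intervals in each comparison, by age or group (colors), where filled points have an adjusted *P* under 0.05 over all genes. The filled points are *Myh3* and *Myh8* in WT against KO and KO+AAV at 40 weeks, both genes with age in KO, *Myh3* with age in KO+AAV, and *Myh1*, *Myh2*, and *Myh3* in KO-GFP, and the widest intervals are those of *Myh7*.

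From 10 to 40 weeks, *Myh3* rose in KO and in KO+AAV, and no gene of the 6 passed the test in WT. In WT, 0 of 6 were called against 0.148% of all genes, 0 were under 0.05 before adjustment against 7.46% of all, and edgeR and DESeq2 called none. *Myh3* gave 0.45 there (95% interval -1.08 to 1.98). In KO, 2 of 6 were called, both higher at 40 weeks, against 8.31% of all genes (4.05% higher). The lowest, median, and highest *Myh3* values in KO were 22.9, 47.4, and 259 at 10 weeks, set beside 146, 510, and 1182 at 40 weeks, so the ages overlapped through 1 library at 10 weeks. *Myh3* was 11.2-fold higher at 40 weeks (log2 fold change 3.49, SE 0.75, limma adjusted *P* = 0.00494), and 3.25 without the library labelled KO replicate 2 (adjusted *P* = 0.0207). *Myh8* was 2.75-fold higher (1.46, SE 0.45, limma adjusted *P* = 0.0397), but its call was lost without KO replicate 2 (1.17, adjusted *P* = 0.152), without KO replicate 3 (1.21, adjusted *P* = 0.1), and without 5 of the 6 KO libraries at 10 weeks in turn. In KO+AAV, 1 of 6 was called against 8.53% of all genes (4.67% higher), which was *Myh3*, 9.33-fold higher at 40 weeks (3.22, SE 0.74, limma adjusted *P* = 0.00603). *Myh8* gave 1 there (SE 0.44, adjusted *P* = 0.161).

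All 40-week libraries were sequenced at Novogene. With the Novogene libraries alone at both ages, a choice made after seeing the data, *Myh3* gave 3.62 in KO (limma adjusted *P* = 0.012) and 3.35 in KO+AAV (adjusted *P* = 0.016). *Myh8* gave 1.48 in KO, which was no longer called (adjusted *P* = 0.0988), and 1.07 in KO+AAV (adjusted *P* = 0.265). A model of the 2 ages alone lost the *Myh3* calls too, with adjusted *P* values of 0.11 in KO and 0.0712 in KO+AAV. *Myh1*, *Myh2*, and *Myh4* gave 0.92, 0.91, and -0.35 with age in KO and 0.91, 0.73, and -0.30 in KO+AAV, none called.

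Whether the difference between WT and KO itself changed with age was tested as an interaction. For *Myh3* the change was -3.04 (SE 0.99, 95% interval -5.06 to -1.02, unadjusted *P* = 0.00444 by limma), which did not pass the adjustment over all genes (adjusted *P* = 0.163), and for *Myh8* it was -1.42 (SE 0.59, adjusted *P* = 0.298). In this test 0 of 6 genes were called against 0.37% of all genes, and 2 were under 0.05 before adjustment against 13% of all. For KO+AAV against KO 0 were called, against 0.00617% of all genes, and 0 were under 0.05 before adjustment, against 5.15% of all. edgeR and DESeq2 called none in either test. The *Myh3* difference was thus called at 40 weeks and not at 10 weeks without the change between ages being called.

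The GFP experiment compared KO muscle with and without an AAV9 vector that carries no *Bmal1*. In KO-GFP, *Myh1*, *Myh2*, and *Myh3* were higher than in KO-Control, so 3 of 6 genes were called, where 3.09% of the 14477 genes tested were (1.83% higher). All 6 genes separated the 3 KO-GFP from the 3 KO-Control libraries without overlap, which held for 23.5% of all genes. *Myh2*, the IIA isoform, had 9525, 8264, and 5555 in KO-Control and 21375, 26126, and 23399 in KO-GFP. It was 3.1-fold higher (log2 fold change 1.63, SE 0.17, limma adjusted *P* = 0.00041). *Myh1*, the IIX isoform, had 12368, 23234, and 11691 in KO-Control and 24186, 53494, and 38136 in KO-GFP. It was 2.45-fold higher (1.29, SE 0.28, adjusted *P* = 0.0294 by limma). *Myh3* had 3.97, 12.5, and 32.1 in KO-Control and 42.8, 115, and 75.8 in KO-GFP. It was 5.59-fold higher (2.48, SE 0.56, limma adjusted *P* = 0.0339), on 4 to 31 reads against 38 to 139. The *Myh1* and *Myh3* calls were each lost with DESeq2 (adjusted *P* of 0.0843 and 0.0985) and when single libraries were left out, *Myh1* without KO-Control replicate 1 or 3 or KO-GFP replicate 2 or 3, and *Myh3* without KO-Control replicate 2 or KO-GFP replicate 2 or 3.

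*Myh4*, the IIB isoform, had 421829, 472024, and 401050 in KO-Control and 306401, 271736, and 274168 in KO-GFP, a difference of -0.60 (SE 0.18, limma adjusted *P* = 0.0946) that passed the threshold with edgeR (adjusted *P* = 0.00371) and DESeq2 (5.64e-07). Its share of the adult isoforms was 94.6%, 93.8%, and 95.9% in KO-Control and 85.9%, 76.7%, and 80.8% in KO-GFP. *Myh7* had 2605, 5.68, and 38.3 in KO-Control and 5351, 3687, and 4477 in KO-GFP. The *Myh7* difference, 5.66 on the log2 scale (SE 1.48, limma adjusted *P* = 0.0625), was 2.35 with edgeR (adjusted *P* = 0.279), which compares mean counts and not mean logs. Without KO-Control replicate 1 it was 8.10 by limma and called (adjusted *P* = 2.6e-06). *Myh8* had 11.9, 18.2, and 24.9 against 25.9, 41.3, and 35.2 (0.90, SE 0.31, limma adjusted *P* = 0.146).

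Markers of slow fibers and of other cells also differed between KO-GFP and KO-Control. The slow fiber list described next summed to 2496 to 7100 in KO-Control and 11420 to 14267 in KO-GFP. Macrophage markers (4 genes) summed to 80.8 to 97.7 in KO-Control and 208 to 270 in KO-GFP, with 3 of 4 called higher, fibroblast markers (4 genes) to 2716 to 6811 and 5502 to 9618, with 2 of 4 called higher, and Schwann cell markers (4 genes) to 649 to 817 and 241 to 268, with 2 of 4 called lower. Over all genes, 3.09% were called, 1.83% of them all higher in KO-GFP. The part of these markers in the heavy chain differences of KO-GFP was not tested. With the slow fiber score as a covariate, a choice made after seeing the data, 0 of the 6 genes were called in KO-GFP against KO-Control. *Myh2* then gave 1.23 (limma adjusted *P* = 0.179) and *Myh3* 4.55 (adjusted *P* = 0.0549), while over all genes 17 were called in place of 448. The slow sums of the 2 groups did not overlap, so slow content and the vector cannot be told apart in these 6 libraries.

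Slow fiber transcripts were summarized from 12 other genes of slow fibers (*Tnnt1*, *Tnni1*, *Tnnc1*, *Myl2*, *Myl3*, *Myl6b*, *Tpm3*, *Atp2a2*, *Casq2*, *Myoz2*, *Csrp3*, and *Myh7b*). Their sum is given as a percentage of the sum of these and 12 genes of fast fibers. The slow fiber score used as a covariate is the mean log level of the same slow genes. Of these, *Casq2* was itself lower in WT than in KO and KO+AAV at both ages, so the score can carry part of the group differences. Slow genes made up a median of 0.339% (range 0.149% to 1.05%) in WT, 0.993% (0.151% to 3.04%) in KO, and 0.377% (0.218% to 2.34%) in KO+AAV at 10 weeks. At 40 weeks the medians were 0.389% (0.154% to 1.78%), 2.12% (0.78% to 14.9%), and 1.01% (0.497% to 3.11%). The 14.9% was KO replicate 3, the library with the highest *Myh7* count, 53008. The groups overlapped at both ages. KO-Control and KO-GFP had medians of 0.263% (0.228% to 0.757%) and 1.48% (1.39% to 1.64%).

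*Myh7* tracked the mean log level of the slow genes closely and *Myh3* less so. Pearson's r over the 34 libraries between each gene's log count and the mean log level of the 12 slow genes, with group and site means removed, was 0.93 for *Myh7*, 0.82 for *Myh2*, 0.70 for *Myh3*, 0.48 for *Myh1*, 0.34 for *Myh8*, and -0.60 for *Myh4*. The 2 measures come from the same libraries and share their size factors, and no test was made of them. *Myh1* and *Myh2* gave 0.72 with each other, and *Myh2* gave -0.67 with *Myh4*. With the slow fiber score as a covariate, also chosen after seeing the data, *Myh3* was still lower in WT than in KO at 40 weeks, by -2.63 on the log2 scale (limma adjusted *P* = 0.00185), and than in KO+AAV, by -3.44 (adjusted *P* = 4.31e-05). *Myh8* gave -1.5 (adjusted *P* = 0.0183) and -1.40 (adjusted *P* = 0.0238). *Myh7* and *Myh2* then gave 1.54 and 0.08 for WT against KO, where they had given -3.40 and -0.97.

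**Figure D4:**
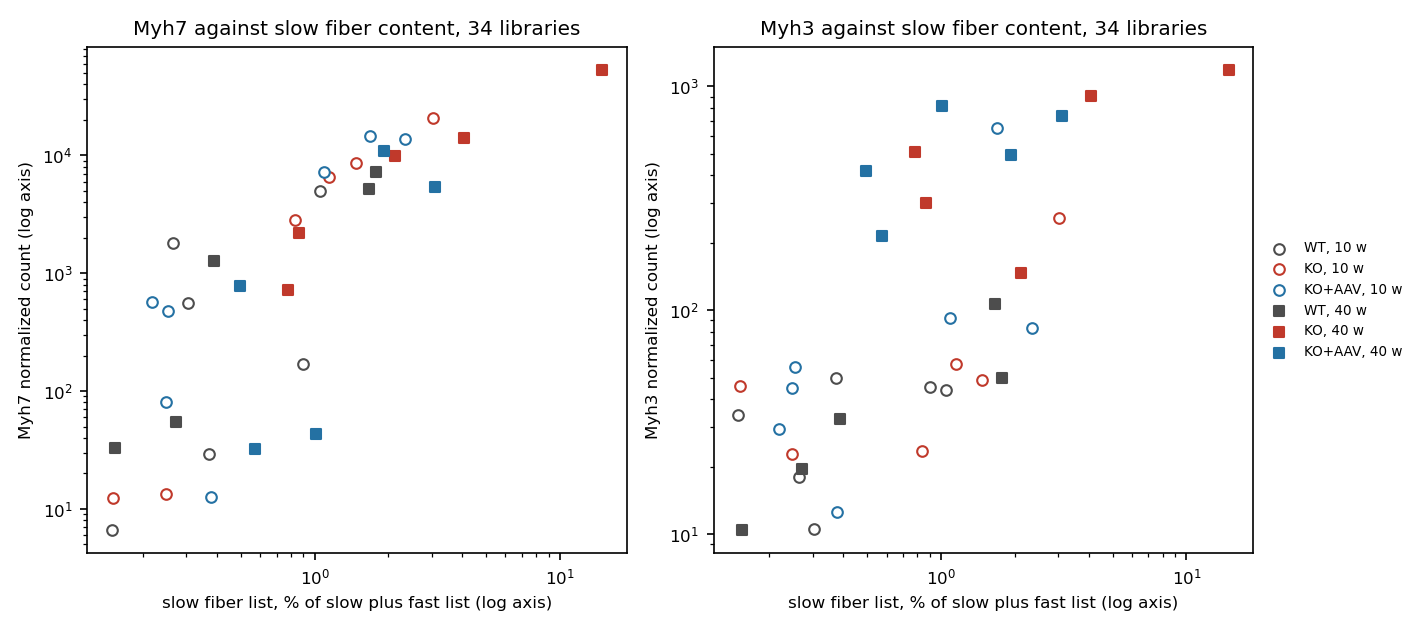
Normalized counts (y axes, log scale) of *Myh7* (left) and *Myh3* (right) against the slow fiber list as a percentage of the slow plus fast lists (x axes, log scale) in the 34 libraries of the main experiment, with open circles at 10 weeks and squares at 40 weeks. *Myh7* tends to be higher where slow content is higher, but not in step within each group. In KO+AAV at 40 weeks, for example, it is 772 at 0.497% and 43.1 at 1.01%. The KO and KO+AAV squares for *Myh3*, from 146 to 1182, lie above the WT squares, from 10.4 to 107.

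The genes whose pattern across the 34 libraries was most like each heavy chain were found by Spearman's rho on log counts with site means removed, over 11105 genes. For *Myh7* they were the slow troponins *Tnnc1* (0.99), *Tnnt1* (0.98), and *Tnni1* (0.97). For *Myh4* they were *Pygm* (0.94), the muscle glycogen phosphorylase, the glycolytic enzyme gene *Gpi1* (0.90), and *Anapc5* (0.88). *Myh2* was most like *Myoz2* (0.91), a Z-disc protein gene of slow fibers, *Idh2* (0.91), a mitochondrial dehydrogenase, and *Esrrb* (0.90). *Myh1* was most like *Mb* (0.90), which encodes myoglobin, *Fhl1* (0.84), and *Adprhl1* (0.84). *Myh3* was most like *Myl12a* (0.90), a regulatory light chain gene of nonmuscle myosin, *Slc43a2* (0.87), and *Pqlc1* (0.86), none of them among the 10 genes nearest to *Myh7*. *Myh8* had the weakest neighbors, *Sbds* (0.80), *Ttc9* (0.79), and *Fam13a* (0.79). These lists are descriptions, since group differences are part of the pattern.

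Of 8 tested genes of embryonic or regenerating muscle, besides *Myh3* and *Myh8*, 5 were lower in WT than in KO at 40 weeks and 0 higher, where 11.5% of all genes were called lower. The median log2 fold change was -1.35, set beside 0.01 for all genes, and 6 of 8 were called lower without KO replicate 2. In WT against KO+AAV, 4 were called lower (median -0.90), where 6.41% of all genes were. *Myog*, the myogenic factor of differentiating myoblasts, had 29.7 to 90.2 in WT, 106 to 263 in KO, and 185 to 277 in KO+AAV, with differences of -1.83 (limma adjusted *P* = 0.000125) and -2.29 (adjusted *P* = 1.35e-05). *Chrna1*, an acetylcholine receptor subunit gene that rises in denervated muscle, had 153 to 250 in WT and 395 to 683 in KO (-1.55, limma adjusted *P* = 1.74e-06). *Actc1*, the cardiac actin gene made in developing skeletal muscle, was 5.82-fold lower in WT than in KO (limma adjusted *P* = 0.000321). *Mymk*, the myoblast fusion gene, was listed at 0 in all 5 WT libraries, at 4.13 to 26.1 in KO, and at 5.61 to 16.8 in KO+AAV. At 10 weeks 2 of these 8 genes, *Chrna1* and *Actc1*, were lower in WT than in KO and 2 lower than in KO+AAV, while *Myh3* and *Myh8* were not called. Over all genes, 8% and 5.15% were called in these 2 comparisons, in either direction. With age in KO, 3 were called higher, among them *Myl4* and *Ncam1*, where 4.05% of all genes were. Without KO replicate 2 only *Myl4* was. In KO+AAV and in WT 0 were called higher, against 4.67% of all genes higher in KO+AAV. In WT, 0.148% of all genes were called in either direction. By sign alone, 6 of 8 were higher with age in KO (median 0.7) and 6 of 8 in KO+AAV (median 0.72). In WT 2 of 8 were higher (median -0.17). *Actc1* was lower at 40 weeks in WT (-3.31, limma adjusted *P* = 0.00123), KO (-2.23, adjusted *P* = 0.00786), and KO+AAV (-3.71, adjusted *P* = 1.89e-05). In KO-GFP 1 of 7 tested (*Chrna1*) was lower, where 3.09% of all genes were called in either direction. Satellite cell markers summed to 148 to 206 in WT, 102 to 201 in KO, and 173 to 293 in KO+AAV at 40 weeks.

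Of the 12 genes of the slow fiber list, 1 was called lower in WT than in KO at 10 weeks (median -1.02), where 8% of all genes were called in either direction. At 40 weeks 2 were called lower (median -1.87, with 7 of 12 at an unadjusted *P* under 0.05), where 11.5% of all genes were called lower. By sign alone, 11 of 12 were lower in WT at 10 weeks and 12 of 12 at 40 weeks, with medians of -0.01 and 0.01 for all genes. These signs were not tested. Both calls at 40 weeks held without KO replicate 2. The list had 1 lower gene at each age in WT against KO+AAV, where 5.15% of all genes were called in either direction at 10 weeks and 6.41% lower at 40 weeks. The gene called in all 4 was *Casq2*, cardiac calsequestrin, which in WT at 40 weeks had 159 to 545 normalized counts, in KO 1673 to 5794, and in KO+AAV 874 to 3665. It was 8.22-fold lower in WT than in KO (limma adjusted *P* = 2.18e-06), and 6.2-fold lower at 10 weeks (adjusted *P* = 1.02e-05). The other was *Myoz2*, at -2.01 (limma adjusted *P* = 0.00944). None was called with age in any group, or in KO+AAV against KO. In KO-GFP, by contrast with KO-Control, 10 of 12 slow genes were called higher (median 1.98), where 1.83% of all genes were. Examples were *Myoz2* (1.46, limma adjusted *P* = 0.000252), the slow light chain gene *Myl3* (1.99, adjusted *P* = 0.00133), and *Csrp3* (2.30, adjusted *P* = 0.00162).

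Of the 12 fast fiber genes, 4 were higher in WT than in KO at 40 weeks, among them *Tpm1* (0.73), *Pvalb* (0.95), the fast-fiber calcium buffer, and *Casq1* (0.67), against 12% of all genes higher in WT. Without KO replicate 2, 1 of 12 was called, and *Tpm1* (adjusted *P* = 0.0568), *Pvalb* (0.0736), and *Casq1* (0.213, all by limma) were not. Against KO+AAV at that age 0 of 12 were called by limma, with 4 of 12 at an unadjusted *P* under 0.05, 10 of 12 higher in WT, and a median of 0.31, set beside 0.40 against KO. With age, *Casq1* and *Pvalb* were lower at 40 weeks in KO (-1.09 and -1.16, the latter not called without KO replicate 2, limma adjusted *P* = 0.0781) and in KO+AAV (-1.04 and -0.94). These were 2 of 12 in each, where 8.31% and 8.53% of all genes were called in either direction. In KO-GFP 1 gene, *Mybpc2*, was lower (-0.53), where 3.09% of all genes were called. At 10 weeks 1 fast gene, *Mylpf*, was lower in WT than in KO+AAV (-0.57), where 5.15% of all genes were called. Of 21 regulators of fiber type, 7 were higher and 1 lower in WT than in KO at 40 weeks, against 12% and 11.5% of all genes (6 and 1 without KO replicate 2), with *Tbx15* (0.58), *Tead1* (0.65), and *Maf* (1.13) having the smallest *P*. *Tead1* was the 1 regulator called in WT against KO+AAV at 40 weeks (0.60), where 12.5% of all genes were called. With age, 1 regulator rose and 3 fell in KO (0 and 2 without KO replicate 2), where 8.31% of all genes were called (4.05% higher). In KO+AAV 3 rose, among them *Nfatc1* (0.49) and *Hdac4* (0.55), and 1 fell, where 8.53% of all genes were called (4.67% higher). *Mafa*, a large Maf factor of fast fibers, was lower at 40 than at 10 weeks in KO (-1.32) and KO+AAV (-1.21) and was lower in KO-GFP (-0.62), where *Maf* was also lower (-0.64) and *Vgll2* higher (1.22). *Myh14*, a nonmuscle heavy chain gene that muscle also uses, was lower in WT than in KO (-0.59, but -0.39 and not called without KO replicate 2, limma adjusted *P* = 0.0952) and KO+AAV (-0.61) at 40 weeks and rose with age in both (0.98 and 1.16).

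Markers of other cell types also moved at 40 weeks. Fibroblast markers summed to 5812 to 8867 in WT, 1896 to 6572 in KO, and 1589 to 7887 in KO+AAV, with 2 of 4 called higher in WT than in each (*Dcn* and *Pdgfra*). By sign, 1 of 4 was lower in WT than in KO, and 2 of 4 were lower than in KO+AAV. Over all genes, 12% were called higher in WT than in KO, and 12.5% were called in either direction against KO+AAV. Adipocyte markers summed to 297 to 1653 in WT, 204 to 657 in KO, and 209 to 868 in KO+AAV, with 2 of 4 higher in WT than in KO, among them *Lep*, which was also higher than in KO+AAV (4.11, limma adjusted *P* = 0.000572). The fibroblast and adipocyte counts against KO were the same without KO replicate 2. The endothelial marker *Pecam1* was lower in WT than in KO (-0.40, limma adjusted *P* = 0.0262), and the satellite cell marker *Pax7* (0.72, adjusted *P* = 0.0404) and the hepatocyte marker *Alb* (3.61, adjusted *P* = 0.0399) were higher, and without KO replicate 2 none of these 3 was called (adjusted *P* of 0.0753, 0.201, and 0.089). No marker is at 0 in all libraries in the fibroblast and adipocyte lists, and the part of these markers in the heavy chain differences was not tested.

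Reads from overlapping or near-identical sequence bear on some values. Whether counting used the strand was not given in the sources used here, and antisense genes share exon bases with *Myh7* (*Gm31251* 6.07%, *Mhrt* 5.62%, and *Gm29015* 1.65% of its exon bases), *Myh1* (*Myhas* 8.11%), and *Myh2* (*9430073C21Rik* 3.32%), whose values are to that extent uncertain. *9430073C21Rik* was itself higher in KO-GFP (1.65, limma adjusted *P* = 0.000586), beside *Myh2*. Windows of 150 bases that occur in another gene made up 5.43% of the *Myh7* transcript (shared with *Myh6*), 2.49% of *Myh1*, 2.06% of *Myh2*, 1.6% of *Myh8*, 0.511% of *Myh4*, and 0.306% of *Myh3*.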

How the data were processed

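RNA was extracted from gastrocnemius of male mice with TRIzol and RNeasy columns, and poly(A) libraries were sequenced at ICBR or Novogene. HISAT2 alignment to GRCm38 and gene counting by HTSeq were done by the authors, whose deposited signal values equal each count over the DESeq2 size factor of its library. The 72 libraries fall in 2 tables that were normalized separately. The annotation release and the strand setting are not given in the sources used here. Multiplied by its size factor, 100% of the values in every library came within 0.01 of a whole read, so reads could be recovered. Replicates are separate animals by their labels.

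Values were tested as log2(normalized count + 1) with limma 3.58.1 (intensity trend, R 4.3.3) over genes with a mean above 5, with 34 gastrocnemius libraries in 1 model of 6 groups and site, and the 6 GFP libraries in a model of their own. A call is a Benjamini-Hochberg adjusted *P* under 0.05 over all genes tested. Fold changes on this scale understate the change of low genes. Single genes were also tested by exact permutation of libraries within sites. edgeR 4.0.16 and DESeq2 1.42.0 on the recovered reads, a pseudocount of 0.5, other filters, scalings and models, and each library left out were alternatives. The code was tested on simulated libraries, where more false calls than the nominal rate were made at 40 weeks. All 6 members are named in every comparison, and from each other list up to 3 called genes with the smallest *P*. *Casq2* levels, *Mymk* levels, and other genes given by level belong to that rule or the marker lists. For each member, the 3 genes most like it among those with a mean above 50 are named. The members, lists, and rules were chosen with earlier results of these data known. Promoters are RefSeq windows on GRCm38.p6, and gene coordinates are from GENCODE on GRCm38.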

Additional observations from a re-analysis of the deposited data

Results flagged for a closer look

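In 5 of the 36 groups of 4 to 10 libraries examined (6 genes in 6 groups), 1 library lay far from the others by Dixon's criterion. Chance gives this in about 1 in 20 groups if values are normally distributed. The criterion was applied to counts without a log, which were spread widely, so the rate by chance is not known here. *Myh7* in WT at 10 weeks was 4943 in replicate 7 and 6.57 to 1819 in the others. *Myh2* in KO at 10 weeks was 97907 in replicate 1 and 8654 to 41430 in the others, and *Myh3* was 259 in the same library and 22.9 to 57.5 in the others. *Myh3* in KO+AAV at 10 weeks was 653 in replicate 4 and 12.6 to 92.4 in the others, and this library also had the highest sums of fibroblast (82347), tendon (7442), and adipocyte (5105) markers of its group. *Myh7* in KO at 40 weeks was 53008 in replicate 3 and 723 to 13928 in the others.

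Outside gastrocnemius, *Myh8* in lung at 40 weeks had at least 0.0786 CPM (3 to 12 reads) in each of 4 KO+AAV libraries and 0 reads in 4 KO libraries. Only KO+AAV above KO was looked for, in 24 pairs of gene and tissue, and this was the 1 found. *Myh7* in lung separated the other way, at 12.9 to 18.3 CPM in KO and 11.5 to 11.6 in KO+AAV. The *Myh8* values are near the limit of detection, and neither difference was tested.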

How the results depend on the processing

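Of 1600 values of the 6 genes recomputed under the alternatives, 1556 stayed on the same side of the threshold with the same sign where called, 31 lost their call, 13 gained one, and 0 called values changed sign. Only 10 of the 72 main values were called, so most of the 1600 had no call to lose. Of the values called in neither fit, 105 changed sign. The permutation values among the 1600 were judged by unadjusted *P*. *Myh3* was called in WT against KO at 40 weeks in 22 of 22 alternatives (-4.24 to -2.63, adjusted *P* 1.74e-05 to 0.00248 by limma, edgeR, or DESeq2), as was *Myh8* (-2.09 to -1.42, adjusted *P* 0.000134 to 0.0276). Against KO+AAV, *Myh3* was called in 22 of 22 (-4.27 to -3.44) and *Myh8* in 19 of 22. With age in KO, *Myh3* was called in 22 of 23 and *Myh8* in 9 of 23, and with age in KO+AAV *Myh3* in 23 of 24.

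The number of the 6 genes called moved as follows. In WT against KO at 10 weeks it was 1 with library quality weights (*Myh1*, -0.99, limma adjusted *P* = 0.013) in place of 0. In WT against KO at 40 weeks it was 3 with DESeq2 or in a model of the 2 groups alone, each gaining *Myh1*, in place of 2. In WT against KO+AAV at 40 weeks it was 1 without the site term in place of 2, and 1 to 2 with a library left out. With age in KO it was 1 in place of 2 with the Novogene libraries alone, CPM scaling, quality weights, no filter on low values, no site term, or the slow fiber score as a covariate, 0 in a model of the 2 groups alone, and 1 to 2 with a library left out. With age in KO+AAV it was 2 with quality weights and 0 in a model of the 2 groups alone, in place of 1. In KO-GFP against KO-Control it was 5 with quality weights, 4 with edgeR or no filter, 2 with DESeq2 or a mean above 50, and 0 with the slow fiber score, in place of 3, and 1 to 3 with a library left out. The causes were not tested.

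Labels give groups the same replicate numbers, but correlations of same-numbered libraries ran from -0.13 to 0.25 at 10 weeks, -0.11 to 0.37 at 40 weeks, and 0.01 to 0.02 in the GFP experiment, so the numbers were not taken to pair animals. With the replicate number as a block, 3 of 6 genes were called in WT against KO at 40 weeks, 2 in WT against KO+AAV, 4 in KO-GFP, and 0 at 10 weeks or in KO+AAV against KO. Over all genes the same fits called 2927 and 1316 of 16199 against WT at 40 weeks, and 493 of 14477 in KO-GFP. They called 1778, 1447, and 70 in WT against KO, WT against KO+AAV, and KO+AAV against KO at 10 weeks. In KO+AAV against KO at 40 weeks 15 were called. No paired analysis was possible across ages because the groups hold different animals.

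Over all genes, calls moved by over 1.5 times in these settings. WT against KO had 1296 calls at 10 weeks, but 3416 with quality weights, 2170 in a model of the 2 groups alone, and 557 and 450 within ICBR and Novogene, and 3804 at 40 weeks, but 2142 in a model of the 2 groups alone. WT against KO+AAV had 834 at 10 weeks, but 1698 with weights, 1396 with DESeq2, 1447 with the block, and 307 and 180 within the sites, and 2018 at 40 weeks, but 3165 with weights and 1316 with the block. KO+AAV against KO had 33 at 10 weeks, but 180 with weights, 147 with DESeq2, 70 with the block, and 3 and 15 within the sites, and 42 at 40 weeks, but 82 with CPM, 79 with DESeq2, 24 with weights, 15 with the block, 4 in a model of the 2 groups alone, 75 without KO replicate 4, and 26 without KO+AAV replicate 4. With age, WT had 24, but 171 with weights, 63 with DESeq2, 4 at Novogene alone, and as few as 7 with a library left out. KO had 1346, but 531 with weights, 848 without a filter, 391 at Novogene alone, 3 in a model of the 2 groups alone, and 472 without KO replicate 2 at 40 weeks. KO+AAV had 1382, but 2088 without the site term, 361 at Novogene alone, 292 in a model of the 2 groups alone, and 702 without KO+AAV replicate 2 at 40 weeks. KO-GFP had 448, but 868 with weights, 17 with the slow fiber score, and 108 without KO-GFP replicate 3. The change of the WT against KO difference with age had 60, but 206 with DESeq2, 118 with weights, 39 with edgeR, 36 with a higher filter, 28 without one, 29 without the site term, 0 at Novogene alone, and, without a 40-week KO library, 197 (replicate 5), 150 (replicate 4), and 24 (replicate 2 or 3). The change of KO+AAV against KO with age had 1, and 0 to 5 elsewhere.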

Other observations

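Outside skeletal muscle, in tissues of 4 KO and 4 KO+AAV mice each at 40 weeks, the gene of the 6 with the most reads was *Myh7*, in heart, where it is the slow isoform of the ventricle. In CPM (recovered reads scaled to the reads counted on genes in the same library), *Myh7* ranged from 23.3 to 106 (median 66.3) in KO heart and from 89.3 to 831 (median 146) in KO+AAV heart, with overlap through the libraries between 89.3 and 106. Lung held 12.9 to 18.3 in KO and 11.5 to 11.6 in KO+AAV. White fat held at most 0.453 and liver at most 0.862. The highest values of the other genes in these tissues were 1.84 for *Myh1* and 0.416 for *Myh2*, both in KO white fat, 0.428 for *Myh8* in KO heart (18 reads in that library), and 0.341 for *Myh3* in KO lung, with *Myh4* at most 0.227 in KO liver. These values are given with no test.

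The ratio of *Myh3* to *Myh8*, the 2 developmental isoforms, had a median of 0.786 (0.539 to 5.33) in WT, 5.89 (2.25 to 11.9) in KO, and 5.89 (5.59 to 12.4) in KO+AAV at 40 weeks. At 10 weeks the medians were 1.01 (0.374 to 2.23), 1.18 (0.283 to 5.22), and 1.47 (0.375 to 4.41) in the same groups. The ages overlapped in WT and in KO, and the ratios rest on few reads and were not tested.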
